A study of Mus musculus with 21 samples.

Results

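Gene expression in the lungs of 3 mice given vitamin E acetate (VEA) at 12.5 was compared with that in 3 mice given 10% ethanol, across all genes. The 6 libraries, 1 per animal, are those the labels assign to these groups: animals 66, 68 and 70 after VEA 12.5, and animals 12, 13 and 14 after ethanol. They are 6 of 21 libraries in a series of 7 groups of 3 animals, which also holds saline, VEA 3.12 and VEA 6.25, set beside them here, and propylene glycol at 2 doses, compared with nothing here. All animals were C57BL/6 mice with 50 µL instilled into the trachea on each of 14 days, and the lung, already lavaged, was collected on day 15. QuantSeq libraries, whose reads come from the 3′ end of transcripts, were made from 500 ng of total RNA. Doses carry the unit mg/kg in the sample labels and mg/mL in the series' own design text, and they are therefore given without a unit. The labels name 10% ethanol as the control for VEA and do not say what VEA was given in. They give neither age nor sex. Lung was measured after lavage and with its cell types together. A higher or lower level of a cell type's genes can come from more or fewer such cells. It can also come from more or less RNA per cell, and these cannot be told apart. The question the design poses is what the highest VEA dose changed in the lung beyond its control.

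VEA is an oily ester of vitamin E that has been added to vaping liquids. In the alveoli, resident macrophages take up inhaled lipid and spent surfactant and break them down in lysosomes. The airway is lined by ciliated cells and by club cells, which secrete protective proteins and hold much of the lung's detoxifying enzymes. Injured lung releases acute phase proteins and chemokines, many of them encoded by targets of the transcription factor NF-kB, and these draw neutrophils and monocytes from the blood.

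Promoters are shown for the genes among the largest risers whose sequence holds the consensus site of NF-kB (the kB consensus), since chemokines known as NF-kB targets are among the rises below. The sequences are from RefSeq (GRCm38.p6), each the 250 bases before the start site on the plus strand, with the match in capitals. Cxcl1 lies at chr5:90890995-90891244, Cxcl2 at chr5:90903649-90903898, Tnfrsf9 at chr4:150927749-150927998 (RefSeq lists a second start, whose promoter holds no match) and Chil1 at chr1:134181906-134182155.
Cxcl1: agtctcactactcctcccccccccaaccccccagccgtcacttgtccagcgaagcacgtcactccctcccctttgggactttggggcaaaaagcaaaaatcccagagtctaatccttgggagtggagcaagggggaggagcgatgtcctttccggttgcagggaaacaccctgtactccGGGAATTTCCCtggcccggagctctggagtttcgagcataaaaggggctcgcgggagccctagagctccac
Cxcl2: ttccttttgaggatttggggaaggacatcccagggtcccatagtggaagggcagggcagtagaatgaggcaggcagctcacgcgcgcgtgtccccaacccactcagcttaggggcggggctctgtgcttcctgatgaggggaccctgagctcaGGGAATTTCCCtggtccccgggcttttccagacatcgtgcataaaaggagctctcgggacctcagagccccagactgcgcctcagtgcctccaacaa
Tnfrsf9: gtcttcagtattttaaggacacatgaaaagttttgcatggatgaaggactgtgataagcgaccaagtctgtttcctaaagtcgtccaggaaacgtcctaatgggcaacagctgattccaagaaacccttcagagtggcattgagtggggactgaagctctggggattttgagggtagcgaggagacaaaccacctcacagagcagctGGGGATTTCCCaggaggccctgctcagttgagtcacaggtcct
Chil1: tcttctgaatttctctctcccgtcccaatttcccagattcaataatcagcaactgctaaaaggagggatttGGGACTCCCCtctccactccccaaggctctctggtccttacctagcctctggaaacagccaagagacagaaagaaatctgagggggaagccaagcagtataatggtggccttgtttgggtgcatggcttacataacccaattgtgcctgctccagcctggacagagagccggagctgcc
Both strands were searched, and in Cxcl1 and Cxcl2 the matches on the 2 strands are shifted by 1 base. Tnfrsf9 holds 2 matches on the plus strand, shifted by 1 base, of which the second also matches on the minus strand. The first matched base lies 71 bases before the start in Cxcl1, 97 in Cxcl2, 43 in Tnfrsf9 and 179 in Chil1. The kB consensus was found in 4 of the 16 named risers that have a promoter in the table, and in 0 of 18 named falls. Over windows of 300 bases (250 before and 50 after the start) it was present in 6.35% of 11073 tested genes, 8.01% of 599 genes called higher and 5.75% of 452 called lower. The antioxidant element TGACNNNGC stood in 16.8%, 16.5% and 16.2% of the same sets, the xenobiotic element core TNGCGTG in 8.94%, 7.68% and 8.63%, and the E-box CACGTG in 11.1%, 9.02% and 11.3%. For all 4 sequences, the kB consensus included, the shares among called genes were within a few points of those over all genes. A match describes the letters only.

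Total counts were 9340375 to 9960450 per library after ethanol and 10375312 to 11783151 after VEA 12.5, and TMM factors were 0.930 to 0.993 and 1.10 to 1.15. Haemoglobin genes took 8.49% to 10.5% of counts after ethanol and 4.06% to 5.13% after VEA 12.5, without overlap. The ribosomal Rn45s took 18.5% to 21.3% and 14.6% to 19.2%. Surfactant, type I, club and endothelial genes were abundant in all 6 libraries, as the label lung requires: summed levels were at least 27000, 8193, 31150 and 2842 CPM. On the first principal component of the 500 most variable genes (30.8% of variance) the VEA 12.5 animals lay at 20.2 to 24.8 and the ethanol animals at -22.5 to -20.8. Levels below are CPM, the count scaled to the TMM-adjusted library total, in the order of animals 12, 13 and 14 for ethanol and 66, 68 and 70 for VEA 12.5. Differences are log2 fold changes ± SE from edgeR's quasi-likelihood test, and a gene is called when its Benjamini-Hochberg adjusted p over all genes is below 0.05. P-values measure the spread between animals, and intervals and floors given for low counts cover counting error only.

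VEA 12.5 raised acute phase proteins, chemokines, and genes of macrophages, antigen presentation, lysosomes and cell division, and lowered genes of club cells, detoxification, cilia, vessels and red cells. The gene lists counted below were chosen with earlier results of these data known. Their counts therefore describe these data and are not independent support. Of 14727 genes tested, 807 were called higher (5.48%) and 623 lower (4.23%). The rises were the larger changes: 159 genes rose by 4 times or more and 351 by less than 2 times, with a median log2 fold change of 1.11. Among the falls, 27 were by 4 times or more and 441 by less than 2 times, with a median of -0.72. In 792 of the 807 and 615 of the 623 the 3 and 3 CPM values did not overlap, where 30.1% of all genes had no overlap. The smallest adjusted p was 4.79e-12, and the median over all genes was -0.01. The count of rises was 456 with a log2 fold change of at least 1 required. The count of falls was 182 under that condition and 961 with only these 2 groups in the fit, and it was 407 without ethanol animal 13 or VEA 12.5 animal 66, 350 without animal 68 and 301 without animal 70.

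**Figure D1:**
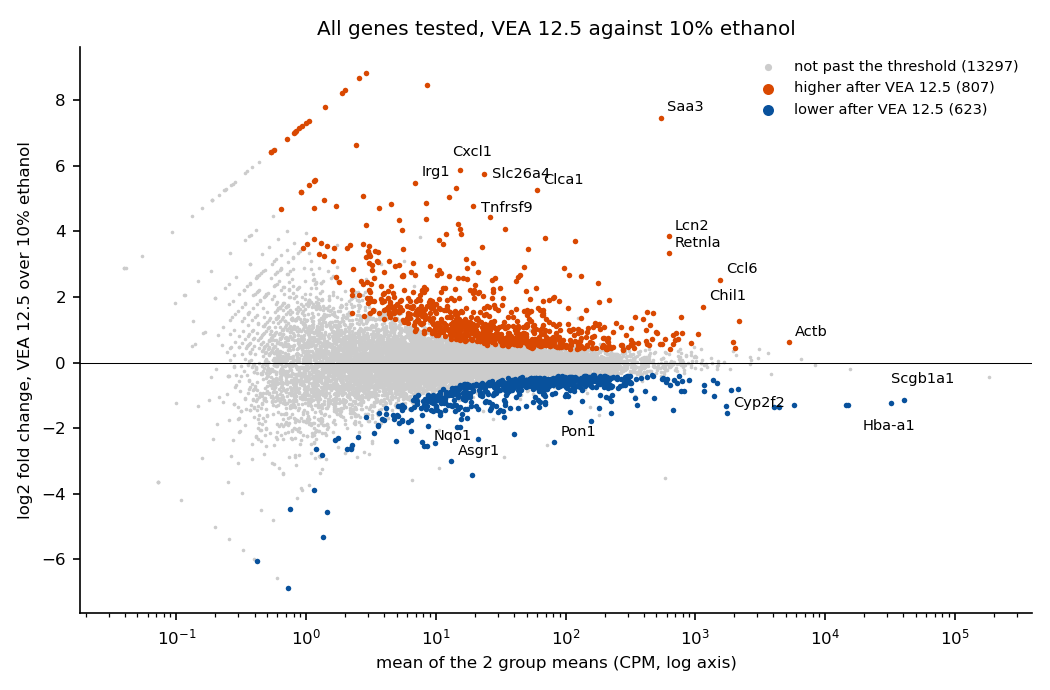
Each point is 1 of 14727 genes, placed by the mean of its 2 group means (x axis, CPM, log scale) and its fitted log2 fold change of VEA 12.5 over 10% ethanol (y axis). Orange points are the 807 genes called higher and blue points the 623 called lower; the slanted lines of points at the left are genes with few or no counts in 1 group, whose fitted values are not bounds.

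The largest rise at a high level was in Saa3, a serum amyloid A protein made locally in inflamed tissue (chromosome 7, 46711998 to 46715700 in GRCm38, GENCODE M21). Its level was 2.53, 8.21 and 7.44 CPM after ethanol and 821, 980.1 and 1447 CPM after VEA 12.5. Every VEA value was 100 times or more the highest ethanol value, and the log2 fold change was 7.48 ± 0.76 (edgeR, adjusted p = 1.43e-05). Lcn2, lipocalin 2, which withholds iron from bacteria (chromosome 2, 32384633 to 32388252), stood at 69.9, 102.5 and 69.1 CPM after ethanol and at 1164, 1100 and 1224 CPM after VEA 12.5. All 3 VEA animals were alike and far above the ethanol animals (3.85 ± 0.47, adjusted p = 7.98e-05). In the acute phase list 9 of 18 tested members rose and none fell, with a median of 1.53 (11 at an unadjusted p below 0.05, all higher). Lrg1, a glycoprotein induced in inflammation, went from 90.7 to 341 CPM (1.91 ± 0.32), Itih4 from 14.6 to 49.6 (1.76 ± 0.32) and Cd14, the endotoxin co-receptor, from 31.1 to 95.5 (1.62 ± 0.20). Haptoglobin (Hp), abundant in both groups at 678 and 781 CPM, did not pass (0.20 ± 0.18). Saa4 had 1 count over the ethanol animals and 84 after VEA 12.5, a ratio of 62.5 (95% counting interval 10.9 to 2500), and its call ended without ethanol animal 12 or 13 or VEA 12.5 animal 68 or 70 (adjusted p = 0.0897, 0.0900, 0.0683 and 0.0777; 0.00188 to 0.0900 over all alternatives). Reads shared among serum amyloid genes cannot be told apart here.

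Neutrophil chemokines rose while neutrophil granule genes mostly did not pass. The lung had been lavaged, and cells removed by the lavage were not measured. Cxcl1, a neutrophil-attracting chemokine and one of the genes whose promoter is shown (chromosome 5, 90891241 to 90893115), had 0.220, 0.432 and 0.863 CPM after ethanol and 22.6, 25.5 and 42.8 CPM after VEA 12.5. Its groups were far apart (5.87 ± 0.49, adjusted p = 1.63e-10). Its neighbour Cxcl2 read 0, 1.08 and 1.08 CPM and then 15.7, 21.3 and 36.4 CPM. Each VEA animal exceeded each ethanol animal (5.06 ± 0.98, adjusted p = 0.00361). Cxcl5, a ligand made mainly by epithelium, rose from a mean of 3.82 to 64.9 CPM (4.09 ± 0.56). Cxcr1, a receptor of these ligands, had 3 counts in all after ethanol and 121 after VEA 12.5, a ratio of 30.0 (95% counting interval 10.0 to 148). These were the 4 of 9 tested chemokine and receptor genes that passed, all higher, while Cxcr2 (0.63 ± 0.49) and the lung chemokine Cxcl15 (0.16 ± 0.14) did not. Of 13 neutrophil granule and marker genes only Mmp8 (2.59 ± 0.31) and Clec4d (1.85 ± 0.46) rose, with a median of -0.10, and 3 had an unadjusted p below 0.05, all higher. S100a8, a main cytosolic protein of neutrophils, had 115.5, 203.2 and 101.6 CPM after ethanol and 154.1, 196.5 and 229.7 after VEA 12.5. These values overlap (0.47 ± 0.37, adjusted p = 0.537). Elane, a granule protease, had no counts in either group. Only 1 of the 13 passed without ethanol animal 13 or VEA 12.5 animal 70.

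Monocyte-attracting CC chemokines rose in 11 of 12 tested members, with a median of 2.84. Ccl6, abundant in lung myeloid cells (chromosome 11, 83587882 to 83593087), was measured at 357, 523.5 and 487.5 CPM after ethanol and 2394, 2509 and 2991 CPM after VEA 12.5. Its lowest VEA value was over 4 times its highest ethanol value (2.53 ± 0.19, adjusted p = 1.06e-10). Ccl3, macrophage inflammatory protein 1 alpha, had 1 count after ethanol and 630 after VEA 12.5, a ratio of 469 (95% counting interval 83.8 to 18500). Ccl9 (2.91 ± 0.25), Ccl7 (4.03 ± 0.59) and Ccl4 (4.37 ± 0.77) rose as well, and so did the receptor Ccr2 (1.13 ± 0.17). Ccl5 was the member that did not pass (0.49 ± 0.28).

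**Figure D2:**
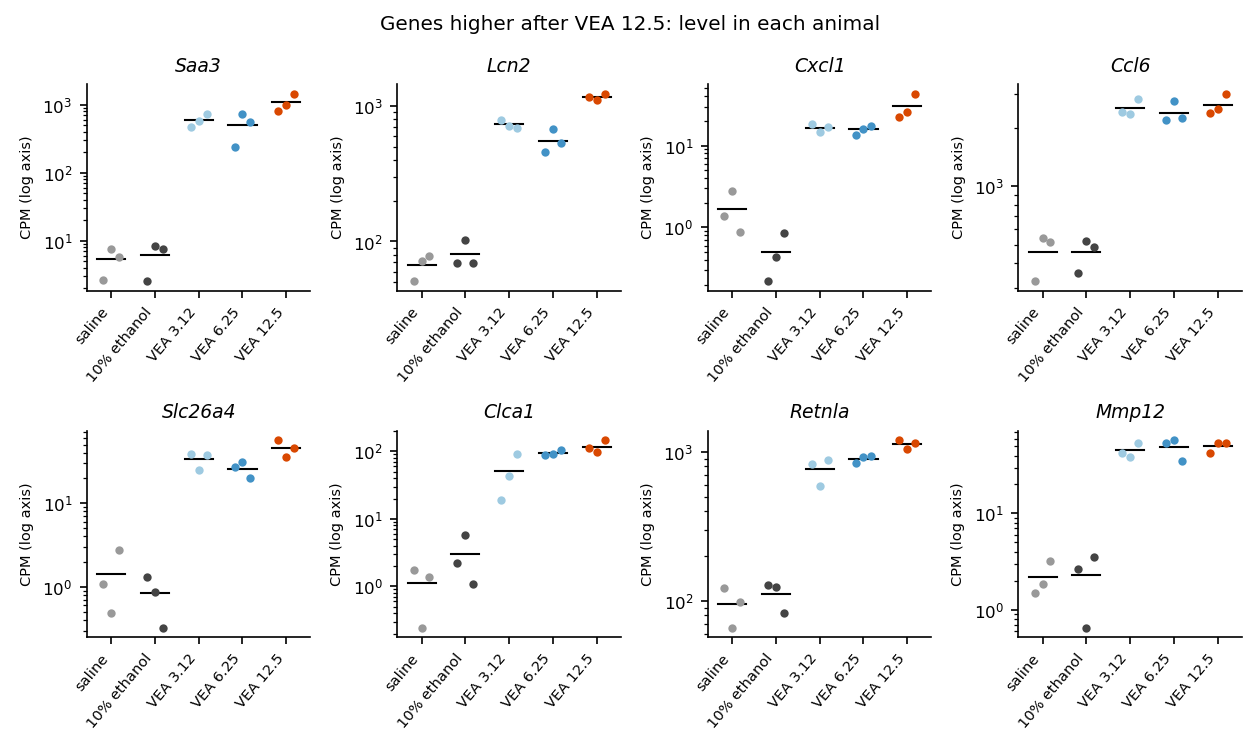
Level of 8 genes higher after VEA 12.5 in each of 15 animals (y axis, CPM, log scale, a separate range for each gene), by group; points are animals and bars are group means of 3. In all 8 the VEA 12.5 animals lie above every saline and ethanol animal, and the VEA 3.12 and 6.25 animals lie above them too.

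Other signal molecules and NF-kB genes rose in part. In the NF-kB feedback and target list 13 of 22 members rose and none fell (median 0.80). Tnfrsf9, the T cell co-receptor 4-1BB and one of the genes whose promoter is shown, had 2.31, 1.08 and 0.647 CPM after ethanol against 36.6, 34.8 and 39.8 CPM. The 3 VEA values were close together and well clear of the others (4.78 ± 0.35, adjusted p = 4.79e-12). Bcl2a1b (1.89 ± 0.24), a survival protein of myeloid cells, Relb (1.11 ± 0.24) and Nfkb2 (0.92 ± 0.22), which are subunits of NF-kB, rose, whereas the inhibitor Nfkbia held 642 and 631 CPM (-0.02 ± 0.13). In the cytokine list 5 of 13 rose (median 1.44). Il1rn, the antagonist of interleukin 1, went from 9.97 to 44.7 CPM (2.16 ± 0.28). Tnf had 1 count after ethanol and 176 after VEA 12.5, a ratio of 131 (95% counting interval 23.2 to 5200). The cytokine count was 3 without any 1 ethanol animal or VEA 12.5 animal 68, and 2 without animal 70. Among genes named by size alone, Rgs16, a regulator of G protein signals, had no counts after ethanol and 190 after VEA 12.5, at least 47.1-fold higher against a floor of 3 counts over the group. Ly6i (5.32 ± 0.63), Serpinb9b (5.09 ± 0.94), Chl1 (4.87 ± 0.93) and Slfn4 (4.73 ± 1.11) rose too, and reads shared between Ly6i and its relatives were not tested. Fxyd4 (4.85 ± 1.33) was called, but not without ethanol animal 13 (adjusted p = 0.108) or 14 (0.100) or VEA 12.5 animal 68 (0.0739) or 70 (0.0633), with a range of 1.21e-10 to 0.108 over all alternatives.

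Type 2 and mucous genes rose in part. Retnla, a secreted product of alternatively activated macrophages and of epithelium (chromosome 16, 48842551 to 48844461), had 127.7, 124.5 and 82.5 CPM after ethanol and 1197, 1054 and 1141 CPM after VEA 12.5. Every VEA value was over 8 times the highest ethanol value (3.34 ± 0.37, adjusted p = 2.99e-05). It was 1 of 6 of 12 tested members of the type 2 list that rose, with the chemokines Ccl17 (2.49 ± 0.22) and Ccl22 (2.99 ± 0.43), both ligands of the receptor Ccr4. The eosinophil granule gene Epx had no counts in either group, and Ccl24, an eosinophil chemokine, had 45 counts after ethanol and 3 after VEA 12.5 and did not pass (adjusted p = 0.0826). Among mucous cell genes 4 of 11 rose (median 0.59). Slc26a4, pendrin, an anion exchanger of airway epithelium (chromosome 12, 31519827 to 31559969), was at 1.32, 0.864 and 0.324 CPM and then at 56.3, 35.7 and 45.4 CPM. With Tnfrsf9 it had the smallest adjusted p of all genes (5.76 ± 0.39, adjusted p = 4.79e-12). Clca1, a secreted protein of goblet cells (chromosome 3, 145003817 to 145032776), went from 2.20, 5.83 and 1.08 CPM to 110.9, 96.4 and 145.5 CPM, again with no overlap (5.27 ± 0.70, adjusted p = 0.00018). The mucin Muc5b (1.48 ± 0.46) rose from 4.17 to 11.7 CPM, while Spdef, the transcription factor of goblet cells, was under 1 CPM in both groups and did not pass. The mucous count was 2 without ethanol animal 14 or VEA 12.5 animal 68, and Muc5b was not called without ethanol animal 13 (adjusted p = 0.134) or 14 (0.160) or VEA 12.5 animal 66 (0.0986) or 68 (0.0992), with a range of 0.00267 to 0.160 over all alternatives.

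Macrophage genes rose across several lists. Some lists share members, such as Lipa and Ctsd in the lipid-handling and lysosome lists, so their counts are not separate. In the list of recruited monocyte and macrophage markers 13 of 17 rose (median 1.27). C1qa, a chain of complement C1q made by tissue macrophages, had 32.8, 34.1 and 25.8 CPM after ethanol and 102.9, 135.9 and 111.2 CPM after VEA 12.5. The groups did not overlap (1.92 ± 0.17, adjusted p = 2.23e-10). Ms4a7 (2.65 ± 0.34), Aif1 (1.70 ± 0.22) and Cd68 (1.61 ± 0.22) rose with it, while the shared myeloid gene Lyz2 stood at 1870 and 2217 CPM and did not pass (0.24 ± 0.22). In the lipid-handling list 12 of 22 rose (median 0.66), and Cd36, which takes up fatty acids, fell (-0.40 ± 0.13). Gpnmb, a membrane glycoprotein of lipid-loaded macrophages, had 10.5, 6.59 and 8.63 CPM and then 92.9, 84.9 and 104.5 CPM. All VEA values were over 8 times the highest ethanol value (3.45 ± 0.48, adjusted p = 0.000263). The scavenger receptor Msr1 (4.22 ± 0.55), Trem2 (2.94 ± 0.56) and the acid lipase Lipa (1.19 ± 0.18) rose, and Apoe (0.30 ± 0.17) did not pass. The call of Cd36 ended without any 1 of the 6 animals and with no filter on low counts (adjusted p = 0.0671; 0.0039 to 0.211 over all alternatives).

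Markers of resident alveolar macrophages moved apart, with 7 of 14 higher and 2 lower. These levels, too, leave out cells removed by the lavage. Marco, a scavenger receptor, rose from 18.8, 31.4 and 36.3 CPM to 172.9, 140.8 and 237.4 CPM. Every VEA animal was above every ethanol animal (2.67 ± 0.39, adjusted p = 0.000376). Chil3 (0.91 ± 0.16) and Itgax, which encodes CD11c (1.08 ± 0.20), rose, and Siglecf, a lectin that defines these cells, was 13.0 and 9.54 CPM and did not pass (-0.45 ± 0.30). Cidec, a lipid droplet protein, fell from 45.7 to 16.7 CPM (-1.45 ± 0.26), and the ribonuclease Ear1 fell (-1.20 ± 0.30), the latter not without ethanol animal 13 or VEA 12.5 animal 70, which left 1 member lower. Lysosome genes rose in 20 of 30 members with a median of 0.69, and in 13 without VEA 12.5 animal 68. Ctsk, cathepsin K, the collagen-degrading protease, was measured at 22.7, 11.7 and 15.9 CPM after ethanol and 186.5, 236.3 and 237.7 CPM after VEA 12.5. The values did not overlap (3.72 ± 0.39, adjusted p = 1.61e-05). Ctsd (1.39 ± 0.21), the progranulin gene Grn (1.08 ± 0.16) and Laptm5 (1.08 ± 0.19) rose, and the membrane proteins Lamp1 (0.31 ± 0.13) and Lamp2 (0.25 ± 0.12) did not pass.

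Genes of macrophage fusion rose in 4 of 7 members, a count of 2 without any 1 ethanol animal. Dcstamp, a membrane protein needed for fusion, had no counts after ethanol and 3.09, 6.18 and 8.08 CPM after VEA 12.5. That is at least 52.6-fold higher against the floor of 3 counts over the group, and the list's median of 1.00 is unaltered by setting it at that bound. Its call ended with DESeq2 (adjusted p = 0.0592) and without ethanol animal 12, 13 or 14 (0.0671, 0.0761 and 0.0646), with a range of 2.8e-07 to 0.0761 over all alternatives. Atp6v0d2, a proton pump subunit of osteoclasts and macrophages, rose from 50.0 to 159.9 CPM (1.68 ± 0.22). Irg1, the enzyme that makes itaconate in activated macrophages, had 0.768, 0.108 and 0 CPM after ethanol and 4.47, 17.2 and 19.2 CPM after VEA 12.5. Animal 66 was the lowest of the VEA animals and still above the ethanol animals (5.49 ± 0.83, adjusted p = 2.14e-05). It was 1 of 3 of 6 arginine and itaconate genes that rose, a count of 1 without ethanol animal 12.

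Antigen presentation and complement genes rose. In the MHC class II and dendritic cell list 11 of 16 members rose (median 1.05). Cd74, the invariant chain, had 237.6, 200.4 and 210.5 CPM after ethanol and 640.8, 680.7 and 570.4 CPM after VEA 12.5. The VEA animals were all more than 2 times higher (1.54 ± 0.16, adjusted p = 2.21e-08). H2-Ab1 (1.51 ± 0.17) and Xcr1, a receptor of cross-presenting dendritic cells (2.14 ± 0.38), rose, while Clec9a, another marker of those cells, was at 18.4 and 13.2 CPM and did not pass (-0.48 ± 0.25). Complement genes rose in 9 of 18, including C3 (0.84 ± 0.15), Cfb (1.67 ± 0.34) and the receptor C3ar1 (2.23 ± 0.31). In the B cell and plasma cell list 3 of 12 members rose: Jchain, Pigr and the chemokine Cxcl13. The list's median was 0.05, with 6 positive and 6 negative differences. Cxcl13 was not called without ethanol animal 13 (edgeR, adjusted p = 0.0585) or VEA 12.5 animal 68 (0.0677). Jchain, which joins IgA and IgM chains, had 8.01, 8.53 and 8.20 CPM and then 37.2, 48.5 and 61.3 CPM. The groups were well separated (2.57 ± 0.44, adjusted p = 0.00107), and the antibody transporter Pigr rose (1.53 ± 0.32), while the B cell genes Cd79a and Ms4a1 did not pass. Of 16 T and NK cell genes only Ctla4 rose, where 5.48% of all genes were called higher. Ctla4 had 2 counts after ethanol and 83 after VEA 12.5, a ratio of 30.9 (95% counting interval 8.28 to 259). Its call ended without ethanol animal 12 or 13 or VEA 12.5 animal 66 or 70. The T and NK list had 2 calls without ethanol animal 14 and 3 with DESeq2 or limma-voom.

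Cell cycle genes rose in 18 of 22 members with a median of 1.95, and in 11 without ethanol animal 13. Mki67, the proliferation marker, had 8.89, 6.70 and 8.09 CPM after ethanol and 40.1, 24.3 and 41.2 CPM after VEA 12.5. The lowest VEA animal, 68, was over 2 times the highest ethanol animal (2.16 ± 0.38, adjusted p = 0.000737). The mitotic genes Ccnb1 (2.64 ± 0.47), Plk1 (1.92 ± 0.38) and Cdc20 (1.90 ± 0.32) rose, and the replication gene Mcm2 (0.76 ± 0.30) did not pass. Stress genes rose in 6 of 16. Gdf15, a stress-induced cytokine, went from 1.43, 2.38 and 2.05 CPM to 22.2, 28.7 and 37.6 CPM. No values overlapped (3.91 ± 0.34, adjusted p = 1.63e-10), and Atf3 (1.79 ± 0.31) and the serine synthesis enzyme Phgdh (1.77 ± 0.34) rose, while Atf4 (0.20 ± 0.15) and Hspa5 (0.48 ± 0.17) did not pass.

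Proteases and matrix genes rose in part. Mmp12, macrophage elastase, had 2.63, 0.648 and 3.56 CPM after ethanol and 42.3, 53.7 and 54.1 CPM after VEA 12.5. The VEA animals were all far above the ethanol animals (4.45 ± 0.47, adjusted p = 4.3e-06). In the metalloproteinase list 6 of 13 rose, with the inhibitor Timp1 (2.52 ± 0.52) and Mmp19 (1.13 ± 0.24) among them, and Timp2 (-0.23 ± 0.16) and Timp3 (-0.35 ± 0.14) did not pass. Matrix and fibrosis genes rose in 9 of 19 (median 0.71), and in 15 with only these 2 groups in the fit. Col3a1, a fibrillar collagen chain, had 244.0, 313.4 and 274.0 CPM and then 572.8, 568.2 and 511.8 CPM. The values were about 2 times higher without overlap (0.99 ± 0.16, adjusted p = 2.47e-05). Elastin (Eln, 1.38 ± 0.22), fibronectin (Fn1, 1.35 ± 0.20) and the crosslinking enzyme Lox (1.13 ± 0.20) rose, and Postn (-0.12 ± 0.17) did not pass.

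**Figure D3:**
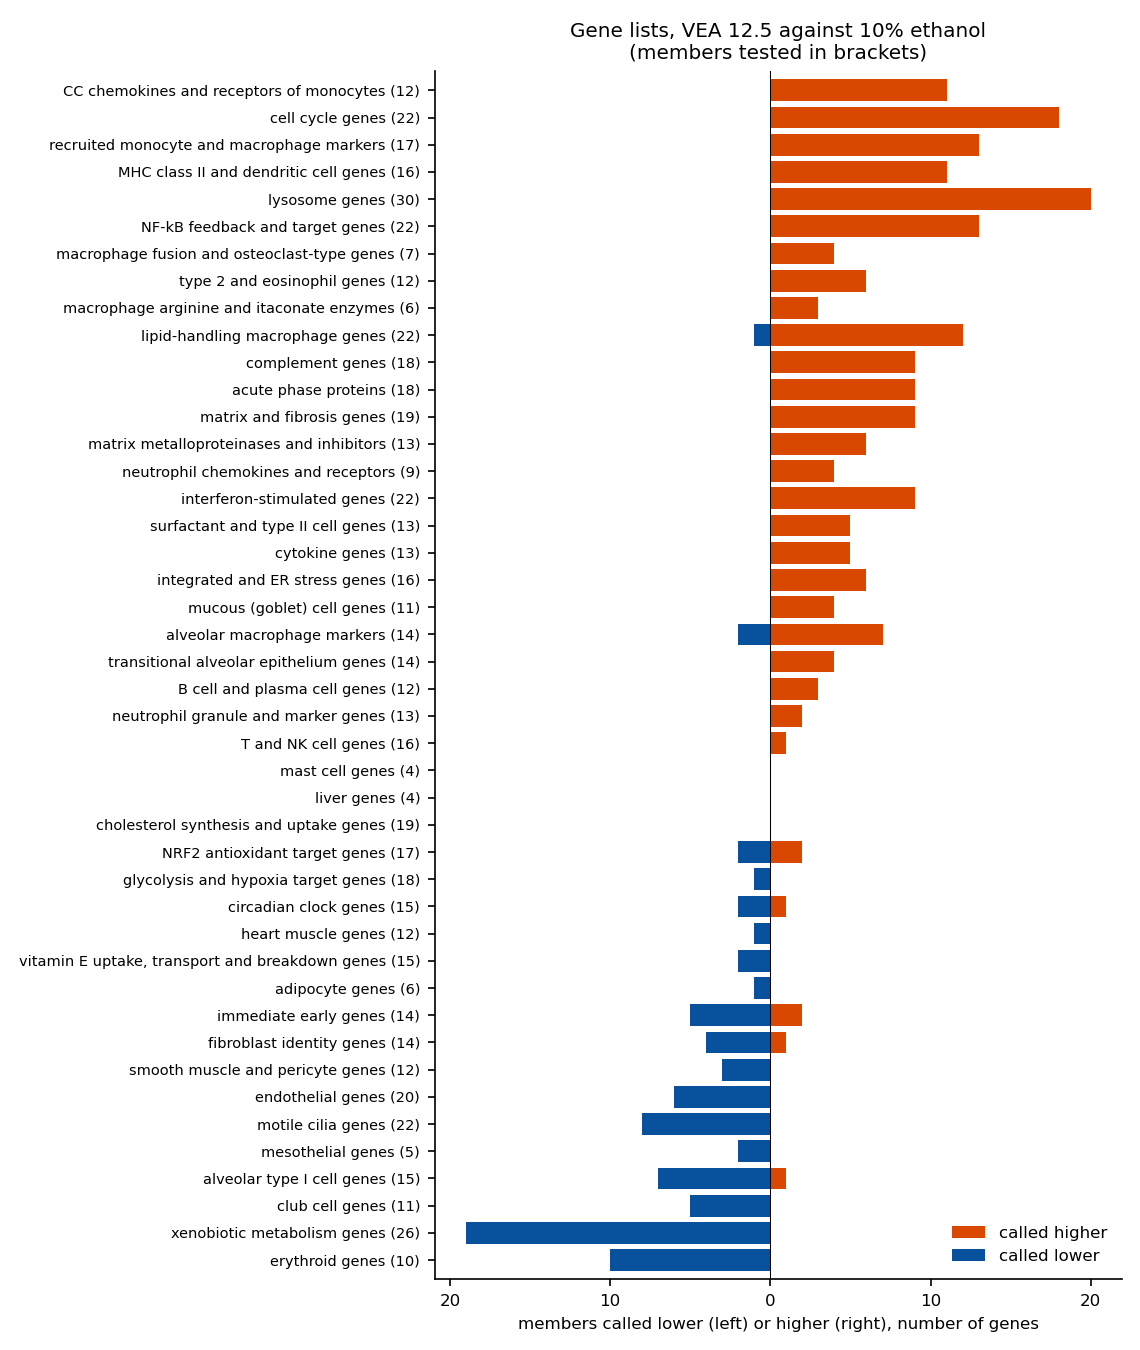
Members called higher (right, orange) or lower (left, blue) in VEA 12.5 against 10% ethanol for the 44 lists with at least 4 tested members (number tested in brackets; x axis, number of genes). CC chemokines (11 of 12) and cell cycle genes (18 of 22) lie at the top, and xenobiotic metabolism (19 of 26) and erythroid genes (10 of 10) at the bottom.

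Airway secretory cell genes fell. Scgb1a1, the main secreted protein of club cells (chromosome 19, 9083636 to 9087958), had 62350, 59610 and 45260 CPM after ethanol and 25750, 24300 and 25890 CPM after VEA 12.5. Every VEA animal lay well below every ethanol animal (-1.14 ± 0.15, adjusted p = 1.99e-06), and no called gene fell by more CPM. Cyp2f2, a club cell cytochrome P450 (chromosome 7, 27119909 to 27133660), stood at 2523, 3237 and 2019 CPM and then at 918.4, 833.4 and 904.2 CPM. The groups did not overlap (-1.55 ± 0.21, adjusted p = 8.42e-06). Cbr2, carbonyl reductase 2, went from 8666, 9605 and 6442 CPM to 3512, 3203 and 3366 CPM. The 3 VEA animals again lay close together below the ethanol animals (-1.29 ± 0.20, adjusted p = 3.29e-05). Of 11 club cell genes 5 fell and none rose (median -0.94), and 9 fell with no filter on low counts. Scgb3a1, a secretoglobin of larger airways, held 729 and 702 CPM (-0.05 ± 0.36). Bpifa1 had 2534, 432 and 232.5 CPM after ethanol and 64.7, 97.8 and 119.0 CPM after VEA 12.5. Those ranges do not overlap, and the spread among ethanol animals was wide (-3.51 ± 1.17, adjusted p = 0.0782).

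Detoxifying enzymes fell in 19 of 26 tested members of the xenobiotic list and none rose, with a median of -1.08. Gsta3, a glutathione S-transferase, had 214.5, 281.5 and 234.3 CPM after ethanol and 78.2, 71.3 and 61.9 CPM after VEA 12.5. No animals overlapped (-1.79 ± 0.18, adjusted p = 1.93e-08). Cyp4b1, a cytochrome P450 abundant in lung, was at 357.8, 342.9 and 290.0 CPM and then at 113.8, 113.8 and 117.0 CPM. The 3 VEA values were nearly equal and all below the ethanol values (-1.52 ± 0.18, adjusted p = 2.38e-07). The aldehyde dehydrogenase Aldh1a1 (-1.44 ± 0.18) and the aldehyde oxidase Aox3 (-1.67 ± 0.21) fell, while Adh1, alcohol dehydrogenase, had 143 and 142 CPM and did not pass (-0.02 ± 0.16). Sult1d1, a sulfotransferase, was called (-2.33 ± 0.67), but not with limma-voom (adjusted p = 0.0555) or without ethanol animal 12 (0.135) or 13 (0.0764) or VEA 12.5 animal 66 (0.148), 68 (0.115) or 70 (0.0965), with a range of 2.23e-19 to 0.148 over all alternatives.

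Some detoxifying genes were high in ethanol animals 13 and 14. Nqo1, a quinone reductase (chromosome 8, 107388225 to 107403206), had 6.92, 17.6 and 19.4 CPM after ethanol and 1.93, 1.63 and 3.96 CPM after VEA 12.5. Animal 12 had the lowest ethanol value, still above the VEA animals (-2.55 ± 0.42, adjusted p = 5.89e-05). The carboxylesterases Ces1g, at 8.67, 20.8 and 20.1 CPM after ethanol, and Ces1f, at 8.12, 19.2 and 12.1 CPM, fell by 2.45 and 2.43 on the log2 scale, to 3.02 and 2.44 CPM. Cyp1a1, the P450 induced through the aryl hydrocarbon receptor, had a mean of 34.5 CPM in ethanol animals and 3.21 CPM after VEA 12.5 (-3.43 ± 0.75, adjusted p = 0.00699). Its groups overlapped, with 4.06 CPM in ethanol animal 12 and 5.39 CPM in VEA 12.5 animal 70, and it was not called with limma-voom (adjusted p = 0.139) or with only these 2 groups in the fit (0.164), in a range of 6.21e-17 to 0.164 over all alternatives. Gsta2 fell as well (-2.40 ± 0.57). Reads shared between Ces1f, Ces1g, Gsta2 and their relatives were not tested.

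**Figure D4:**
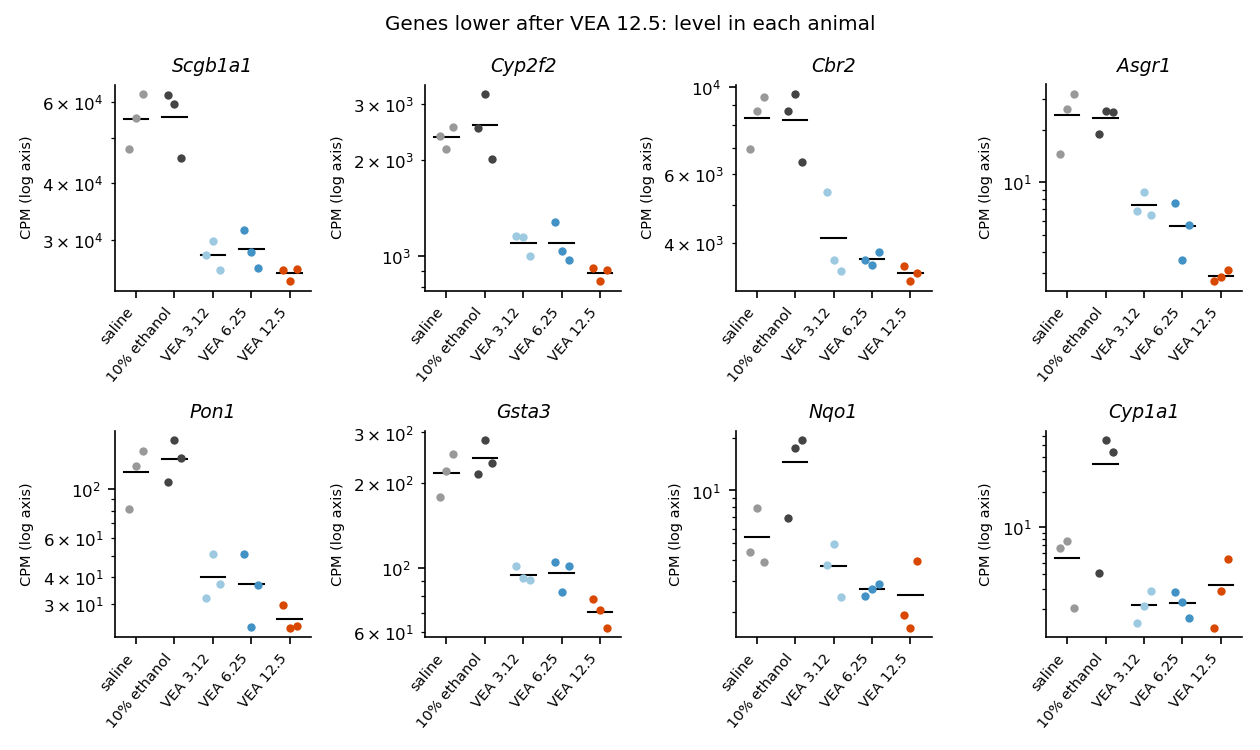
Level of 8 genes lower after VEA 12.5 in each of 15 animals (y axis, CPM, log scale, a separate range for each gene), by group; points are animals and bars are group means of 3. For the first 6 genes saline and ethanol animals lie together above the VEA animals, whereas for Nqo1 and Cyp1a1 ethanol animals 13 and 14 lie above the saline animals.

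Other genes were named by the size of their fall. Asgr1, a subunit of the asialoglycoprotein receptor (chromosome 11, 70054085 to 70057894), had 19.0, 25.8 and 25.4 CPM after ethanol and 2.70, 2.84 and 3.11 CPM after VEA 12.5. It was the largest fall among called genes at 5 CPM or more with no overlap (-3.01 ± 0.34, adjusted p = 7.53e-08). Pon1, paraoxonase 1, an esterase of lipoproteins (chromosome 6, 5168090 to 5193946), had 107.7, 167.1 and 139.2 CPM and then 29.9, 23.5 and 23.8 CPM. The highest VEA value was over 3 times below the lowest ethanol value (-2.42 ± 0.31, adjusted p = 5.78e-05). Fabp1 (-1.98 ± 0.43), Bex2 (-2.17 ± 0.31), Ppp2r2c (-1.96 ± 0.31), Cttnbp2 (-2.08 ± 0.46) and Cox8b (-1.94 ± 0.39) fell too. Calml3 (-2.55 ± 0.65) was called, but not with limma-voom (adjusted p = 0.0831) or without ethanol animal 12 (0.0517) or 13 (0.0508) or VEA 12.5 animal 66 (0.0703) or 68 (0.0614), with a range of 6.64e-09 to 0.0831. Micalcl (-2.15 ± 0.62) was not called without ethanol animal 13 (0.0728) or 14 (0.0535) or VEA 12.5 animal 68 (0.0670) or 70 (0.132), in a range of 0.0038 to 0.132, nor Megf9 (-1.94 ± 0.50) without animal 70 (0.0760, in a range of 0.00126 to 0.0760).

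Of 22 tested genes of motile cilia 8 fell and none rose (median -0.99), and all 22 had a negative difference. Tppp3, a microtubule protein of ciliated cells, had 407.8, 406.1 and 330.7 CPM after ethanol and 229.4, 253.6 and 253.4 CPM after VEA 12.5. The groups did not overlap (-0.64 ± 0.16, adjusted p = 0.00702). The axonemal dynein Dnah5 (-1.23 ± 0.31) was called, while Foxj1, the regulator of ciliogenesis, stood at 42.9 and 30.4 CPM and did not pass (-0.50 ± 0.20). The count of 8 was 13 with only these 2 groups in the fit. It was 1 without ethanol animal 12, where Dnah5 was lost too (adjusted p = 0.139), 4 without ethanol animal 13 or VEA 12.5 animal 66, and 3 without animal 68 or 70, both of which also ended the call of Dnah5 (0.0614 and 0.0513; 0.00136 to 0.139 over all alternatives).

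Alveolar epithelial genes moved apart. Of 13 genes of surfactant and type II cells 5 rose and none fell (median 0.31), and 3 were called without ethanol animal 13. Sftpd, surfactant protein D, an innate immune lectin (chromosome 14, 41172214 to 41185149), had 1283, 1283 and 1251 CPM after ethanol and 3013, 2871 and 3404 CPM after VEA 12.5. All VEA animals were more than 2 times higher (1.28 ± 0.16, adjusted p = 3.07e-07). Muc1 (1.04 ± 0.14) and Lamp3 (0.53 ± 0.14) rose, while Sftpc, the defining surfactant protein of type II cells, held 16510 and 14530 CPM (-0.18 ± 0.16, adjusted p = 0.564). Chil1, the chitinase-like protein whose promoter is shown, had 510.1, 568.3 and 540.0 CPM and then 1804, 1548 and 1942 CPM. Its groups did not overlap (1.71 ± 0.21, adjusted p = 4.3e-06).

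Alveolar type I cell genes fell in 7 of 15 and 1, Gprc5a, rose (median -0.33). Hopx, a homeodomain protein of type I cells, had 669.8, 662.8 and 620.4 CPM after ethanol and 293.0, 306.3 and 327.7 CPM after VEA 12.5. The VEA animals lay close together, below every ethanol animal (-1.08 ± 0.15, adjusted p = 3.89e-06). Sec14l3, a lipid transfer protein related to vitamin E binding proteins, fell from 2733 to 1558 CPM (-0.81 ± 0.14). Ager, an abundant type I marker, had 2598 and 2735 CPM and did not pass (0.07 ± 0.13), nor did Aqp5 (0.38 ± 0.15). The 7 falls were 4 without ethanol animal 12, 3 without ethanol animal 13 or VEA 12.5 animal 68, and 2 without animal 66 or 70, and Gprc5a was not called without any 1 ethanol animal or VEA 12.5 animal 66 or 70. Genes of the transitional state between type II and type I cells rose in 4 of 14, among them Sfn (12.8 to 36.1 CPM) and Clu (1.20 ± 0.15), while the keratins Krt8 (0.34 ± 0.16) and Krt19 (0.01 ± 0.17) did not pass. That count was 2 without ethanol animal 12 or 13 or VEA 12.5 animal 68 or 70.

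Vessel genes fell in 6 of 20 and none rose (median -0.50). Kdr, the receptor for vascular endothelial growth factor, had 266.7, 276.5 and 369.0 CPM after ethanol and 168.4, 156.3 and 137.0 CPM after VEA 12.5. The ranges did not overlap (-0.98 ± 0.16, adjusted p = 3.14e-05). Ptprb (-0.87 ± 0.16), Gpihbp1 (-0.63 ± 0.14) and Tek (-0.61 ± 0.14) fell, whereas Esam (-0.01 ± 0.16) and Emcn (0.05 ± 0.19) did not pass. The count was 10 with no filter on low counts and 13 with only these 2 groups in the fit. Fibroblast identity genes fell in 4 of 14 and 1, Mfap4 (1.16 ± 0.26), rose. Inmt, a methyltransferase of lung fibroblasts, went from 1866 to 918.6 CPM (-1.02 ± 0.14). The fibroblast count was 2 without ethanol animal 12 or 13 or VEA 12.5 animal 66, and 1 without animal 70. Of 12 smooth muscle and pericyte genes Acta2 (-1.05 ± 0.27), Myh11 (-1.19 ± 0.32) and Des (-0.54 ± 0.18) fell. The smooth muscle count was 0 without ethanol animal 12 or 13 or VEA 12.5 animal 70, 1 without animal 66 or 68, and 5 with no filter on low counts.

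Erythroid genes fell in 10 of 10 tested members (median -1.33). Hba-a1, alpha globin, had 41220, 49560 and 45580 CPM after ethanol and 21930, 16350 and 19610 CPM after VEA 12.5. The groups did not overlap (-1.24 ± 0.24, adjusted p = 0.000932). The beta globins Hbb-bs (-1.29 ± 0.26) and Hbb-bt (-1.35 ± 0.29) and their near-identical entries Hbb-b1 and Hbb-b2, which can share reads, fell alike, as did Alas2, the haem synthesis enzyme of red cell precursors (-1.39 ± 0.25). With Rn45s and the haemoglobin genes left out of the tables, 826 genes were called higher and 581 lower, and 4 of this list, those that are not haemoglobin genes, were called lower. Genes of tissues that adjoin the lung had mostly negative differences: all 12 heart muscle, all 6 adipocyte and 4 of 5 mesothelial genes. Their medians were -1.215, -1.992 and -1.265. At an unadjusted p below 0.05 (edgeR) 6, 4 and 3 were lower and none higher. At the adjusted threshold 1 of 12, 1 of 6 and 2 of 5 were called lower, where 4.23% of all genes were. Summed heart muscle genes ranged from 184.7 to 464.6 CPM after ethanol and 109.0 to 144.0 CPM after VEA 12.5, with 1 of 12 called (Actc1, -1.35 ± 0.38). Summed adipocyte genes ranged from 227.5 to 386.5 and from 71.5 to 163.0 CPM, with 1 of 6 called (Cox8b). The adipocyte count was 6 with no filter on low counts and 5 with only these 2 groups in the fit. Of 5 mesothelial genes Lrrn4 and Upk3b fell, and none of 4 mast cell, 4 liver or 1 basal cell gene passed (edgeR; 0, 2 and 0 at an unadjusted p below 0.05; with DESeq2 1 liver gene, with limma-voom none). The part of blood, heart and fat in the other falls was not tested. The call of Actc1 ended without ethanol animal 13 or any 1 VEA 12.5 animal, and the heart count was 5 without ethanol animal 12, 4 with DESeq2 or only these 2 groups in the fit, and 9 with no filter on low counts. The 2 mesothelial calls became 1 or 0 without any 1 of the 6 animals.

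Most genes for the handling of vitamin E, cholesterol and oxidants did not pass. Over all genes tested 5.48% were called higher and 4.23% lower. Of 15 genes for uptake, transport and breakdown of vitamin E, Sec14l3 and Cd36 fell (median -0.05). Ttpa, the alpha-tocopherol transfer protein, was at 3.41 and 1.32 CPM (-1.35 ± 0.67, adjusted p = 0.229), and the lipoprotein receptor Scarb1 (0.40 ± 0.26) did not pass. There was 1 fall without any 1 of the 6 animals or with no filter on low counts. No member rose with edgeR (2 higher at an unadjusted p below 0.05), while 1 was called higher with DESeq2, limma-voom or no filter on low counts, and 2 with only these 2 groups in the fit. None of 19 cholesterol synthesis and uptake genes passed with edgeR, DESeq2 or limma-voom (5 at an unadjusted p below 0.05, of which 4 higher; 1 was called with only these 2 groups in the fit). In the list of antioxidant targets of the factor NRF2, ferritin heavy chain Fth1 (0.62 ± 0.14) and the cystine transporter Slc7a11 (1.44 ± 0.47) rose, Nqo1 and Gpx2 (-1.41 ± 0.31) fell, and 13 of 17 did not pass, such as Gclc (0.26 ± 0.16), Srxn1 (0.03 ± 0.19) and Hmox1 (1.21 ± 0.46). Slc7a11 was not called without ethanol animal 12 or 14 or VEA 12.5 animal 68 or 70 (adjusted p = 0.221, 0.0598, 0.154 and 0.113; 0.00895 to 0.221 over all alternatives), which leaves 1 riser, and there were 4 risers with DESeq2 or with only these 2 groups in the fit. At an unadjusted p below 0.05 (edgeR) 4 members of the NRF2 list were higher and 3 lower. Fth1 read 1363, 1516 and 1708 CPM after ethanol and 2225, 2325 and 2513 CPM after VEA 12.5. Its ranges did not overlap.

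Of 18 glycolysis and hypoxia genes only Vegfa fell (-0.54 ± 0.17), where 4.23% of all genes were called lower and 5.48% higher. The call of Vegfa ended without any 1 ethanol animal or VEA 12.5 animal 68 or 70. With only these 2 groups in the fit 2 members were called in each direction. In the clock list Bhlhe41 rose (1.54 ± 0.32) and Hlf (-1.61 ± 0.30) and Tef (-0.58 ± 0.18) fell, of 15. Tef was not called without ethanol animal 13 or 14 or VEA 12.5 animal 68, and the falls counted 1 without ethanol animal 14 and 4 with DESeq2. Core clock genes such as Arntl (-0.68 ± 0.32) and Nr1d1 (0.04 ± 0.23) did not pass. Immediate early genes fell in 5 of 14 and rose in 2. Klf2, a flow-responsive factor of vessels, had 256.0, 276.1 and 391.8 CPM after ethanol and 135.3, 150.1 and 127.1 CPM after VEA 12.5. No values overlapped (-1.16 ± 0.21, adjusted p = 0.000422), and the phosphatase Dusp1 fell (-1.01 ± 0.18), while Fos (0.03 ± 0.31) did not pass. The 5 falls were 3 without ethanol animal 14 or VEA 12.5 animal 66 or 70, and the 2 rises were 1 or 0 without any 1 of the 6 animals. Actb, beta actin, often used as a reference gene, rose from 4127, 4149 and 4078 CPM to 6719, 6120 and 6164 CPM. Its groups were clear of each other (0.62 ± 0.13, adjusted p = 0.00168), and no called gene rose by more CPM.

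Against saline, the other control, the same 3 VEA 12.5 libraries had 870 genes higher (5.91%) and 642 lower (4.36%). The 2 comparisons share the VEA 12.5 libraries, so their values are only set side by side. Saa3 was 7.48 ± 0.76 against ethanol and 7.68 against saline, Ccl6 2.53 and 2.52, Slc26a4 5.76 and 4.94, Scgb1a1 -1.14 and -1.12, Asgr1 -3.01 and -3.07, and each passed in both (edgeR, adjusted p against saline = 1.35e-05, 6.84e-11, 1.95e-11, 2.66e-06 and 5.34e-08). Xenobiotic genes fell in 16 of 26 against saline and in 19 against ethanol, and cell cycle genes rose in 11 and 18 of 22. For Nqo1, with a saline mean of 5.42 CPM and an ethanol mean of 14.7 CPM, the difference from saline did not pass (-1.11 ± 0.42, adjusted p = 0.0895). Cyp1a1 had 5.44 CPM after saline, 34.5 CPM after ethanol and 3.21 CPM after VEA 12.5, and it did not differ from saline past the threshold (-0.76 ± 0.74, adjusted p = 0.604). Ces1g stood at -1.16 ± 0.39 against saline (adjusted p = 0.0495), where it had been -2.45 ± 0.39 against ethanol. Megf9 (-0.45 ± 0.51, adjusted p = 0.660), Gsta2 (-1.67 ± 0.57, 0.0533) and Dcstamp (0.0533) also did not pass against saline. The total of 1512 was 627 with a log2 fold change of at least 1 required, 987 without VEA 12.5 animal 68 and 939 without animal 70.

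Levels at the 3 VEA doses were set side by side, and VEA 12.5 was tested directly against the lower doses. Saa3 had means of 597, 509 and 1083 CPM at 3.12, 6.25 and 12.5, Lcn2 729, 554 and 1163, Cxcl1 16.5, 15.7 and 30.3, Asgr1 7.39, 5.59 and 2.89, and Scgb1a1 27730, 28570 and 25310. For Saa3 the difference from VEA 6.25 was 1.09 ± 0.55 and from VEA 3.12 0.86 ± 0.55, and for Asgr1 -0.95 ± 0.34 and -1.35 ± 0.34, and none of these passed (adjusted p = 0.665, 0.999, 0.386 and 0.416). Against VEA 6.25 a single gene of 14727 was called (0.00679%), with 1196 at an unadjusted p below 0.05. Against VEA 3.12 edgeR called none (0.0%), with 801 at an unadjusted p below 0.05 and a smallest adjusted p of 0.261 (Synm, -0.79 ± 0.16). Other tools and settings called more: DESeq2 66 and 3 genes, limma-voom 2 and 0, no filter on low counts 161 and 60, and only the 2 groups in the fit 59 and 24. The negative differences from VEA 6.25 with the smallest p, none of which passed, were in Rassf3 (-0.87 ± 0.17, adjusted p = 0.0548), Plce1 (-0.89 ± 0.18) and S100g (-0.74 ± 0.17). The positive differences from VEA 3.12 with the smallest p were in Lmnb1 (0.85 ± 0.20), a nuclear lamin, Spi1 (0.73 ± 0.17), the myeloid transcription factor PU.1, and Rraga (0.69 ± 0.17), with an adjusted p of 0.416 each.

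The gene called against VEA 6.25 was Lgals3bp, a secreted glycoprotein induced by interferon. Its levels were 75.5, 144.5 and 94.3 CPM in VEA 12.5 animals 66, 68 and 70 and 47.6, 52.9 and 51.1 CPM in VEA 6.25 animals 63, 64 and 65. Animal 68 was the highest and no values overlapped (1.05 ± 0.19, adjusted p = 0.0331). The call ended without VEA 6.25 animal 63, 64 or 65 (adjusted p = 0.122, 0.141 and 0.121) or VEA 12.5 animal 68 (0.446) or 70 (0.0626), with a range of 2.18e-07 to 0.446 over all alternatives.

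Interferon-stimulated genes differed among the VEA 12.5 animals. Of 22 tested members 9 rose against ethanol and all 22 had a positive difference (median 1.09). Isg15, a ubiquitin-like protein induced by interferon, had 19.96 to 20.6 CPM after ethanol and 36.8, 156.0 and 104.1 CPM after VEA 12.5. Animals 68 and 70 stood well above animal 66, which was itself above the ethanol animals (2.29 ± 0.49, adjusted p = 0.00777). Irf7, a transcription factor of the response, had 4.28, 3.78 and 4.21 CPM and then 8.56, 59.9 and 22.8 CPM. Ifi44 was at 16.2, 7.45 and 15.0 CPM and then at 17.2, 74.3 and 39.5 CPM, so that animal 66 lay close to the ethanol animals. With only these 2 groups in the fit Isg15, Irf7 and Ifi44 were not called (edgeR, adjusted p = 0.0939, 0.12 and 0.203). With limma-voom Irf7 and Ifi44 were not called (adjusted p = 0.0919 and 0.0536). The chemokine Cxcl10 had 2.74, 0 and 0.216 CPM and then 1.16, 22.9 and 18.3 CPM, an overlap through animal 66 (adjusted p = 0.0848). The summed level of the list was 377.0 to 401.2 CPM in ethanol animals, 391.4 CPM in VEA 12.5 animal 66, 1216 CPM in animal 68 and 821.4 CPM in animal 70. It was 312.7 to 443.4 CPM over the saline, VEA 3.12 and VEA 6.25 animals. Animal 66 fell within the range of the other groups, and animals 68 and 70 lay above it.

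The count of 9 interferon-stimulated genes was 5 without animal 68 and 13 without animal 66, 14 with no filter on low counts and 5 with only these 2 groups in the fit. Against VEA 6.25 the list's median was 1.43 with no member called by edgeR, DESeq2 or limma-voom and 17 at an unadjusted p below 0.05, all higher. There 8 members were called without animal 66, 0 without animal 68 or 70, and 15 with no filter on low counts. Against VEA 3.12 the median was 1.17 with none called by edgeR or limma-voom, 1 by DESeq2 and 15 at an unadjusted p below 0.05, all higher. There 5 members were called without animal 66, 0 without animal 68 or 70, and 10 with no filter. Animal 66 had the lowest summed level of this list in its group, so calls made without it are not support for a difference between doses. With animal 66 left out 16 genes in all were called against VEA 6.25. Of these 15 were higher, such as Irf7 (2.44 ± 0.37), Ifi44 (2.28 ± 0.29) and Rsad2 (2.23 ± 0.30), and 1, Rassf3, was lower. Against VEA 3.12 the number was 8, among them Ifi44 (1.80 ± 0.29) and Trim30a (1.05 ± 0.19). Reads of Ifit3 and its relative Ifit3b, both called in these fits, can be shared. What sets animal 66 apart from animals 68 and 70 in this list was not tested.

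**Figure D5:**
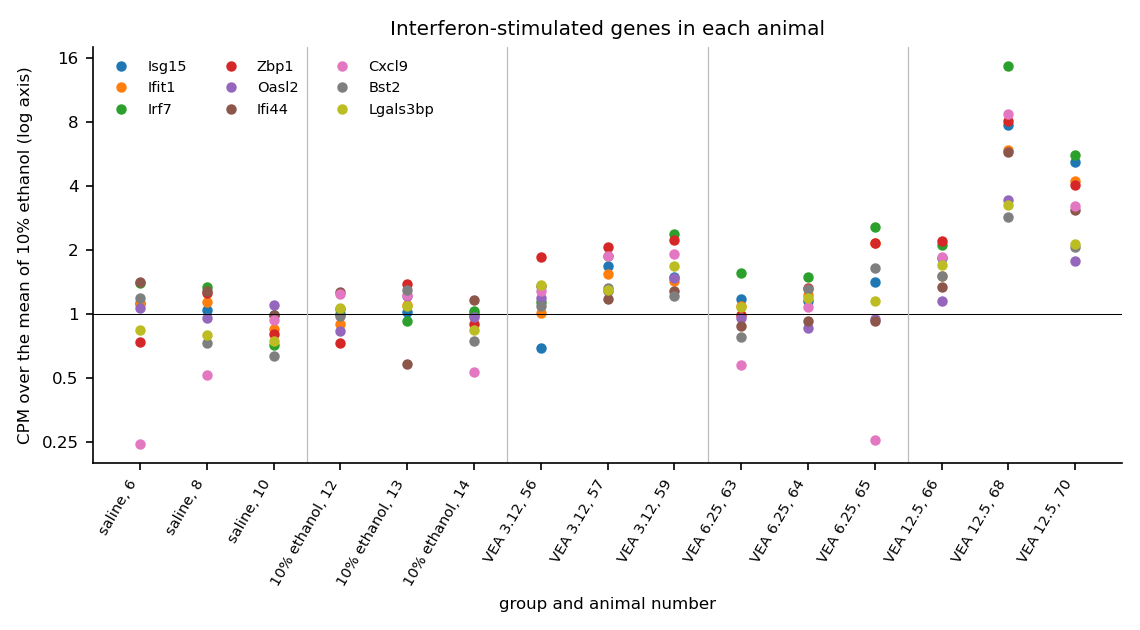
Level of 9 interferon-stimulated genes in each of 15 animals (x axis, group and animal number) relative to the mean of the 10% ethanol animals (y axis, CPM ratio, log scale; the line marks 1). VEA 12.5 animals 68 and 70 lie highest, while animal 66 overlaps the VEA 3.12 and 6.25 animals.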

How the data were processed

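Counts per gene are as deposited by the authors, 1 file per library with 23282 rows and 23238 symbols. Rows of the 35 symbols listed more than once were summed. Bowtie2, bedtools and the build mm10 are named in the submitters' processing notes, with no versions. The annotation and strand used in counting are not given in the sources used here, so overlapping and antisense genes cannot be told apart. Of the deposited counts, those of all 21 libraries entered 1 fit with edgeR 4.0.16 in R 4.3.3 (TMM scaling, filterByExpr, quasi-likelihood test, 14727 genes, 14 residual degrees of freedom, biological coefficient of variation 23.81%). Calls required an adjusted p (Benjamini-Hochberg) under 0.05, and SE is the log2 fold change divided by the square root of its F statistic. Without replicate numbers shared between groups no pairing was used, and no library was left out.

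Genes named for size were called genes at 5 CPM or more in the higher group whose animals did not overlap: the 15 largest rises and falls by fold, with the 8 largest each way in CPM. For the lower doses 5 each way applied. From each list up to 6 members were named, chosen with their values in view. Gene models without a name, such as those with Gm or Rik symbols, were tested and not named. The members of the comparison and the 45 lists (677 symbols, 673 in the files, 620 tested) were chosen with earlier results of these data known. Promoters came from RefSeq (GRCm38.p6) and matched 11073 of 14727 tested genes; positions are from GENCODE M21. As alternatives, scaling was by RLE, the test was DESeq2 1.42.0 or voom in limma 3.58.1, the filter on low counts was dropped, the fit held just the pair of groups, calls also needed a log2 fold change of 1 or more, Rn45s and 10 haemoglobin symbols were removed, and each animal was left out in turn. The procedure was also run on counts simulated with the fitted dispersions. Such counts hold no differences shared by many genes of 1 animal, so that run does not cover them. Gene totals limit precision as stated beside each value: 5 CPM is 45.6 to 46.3 counts in an ethanol library and 59.4 to 64.8 in a VEA 12.5 library.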

Additional observations from a re-analysis of the deposited data

Results flagged for a closer look

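Set against VEA 6.25, the next lower dose, VEA 12.5 had 1 gene called of 14727 by edgeR. That gene was Lgals3bp, with a log2 fold change of 1.05 ± 0.19 (edgeR, adjusted p = 0.0331) and all 3 VEA 12.5 animals above all 3 VEA 6.25 animals. Lgals3bp was listed because it passed in a direct test between the 2 doses. The call did not hold without 5 of the 6 animals in turn, and its cause was not tested.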

How the results depend on the processing

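No paired analysis was possible because the groups share no replicate numbers. Against 10% ethanol, requiring a log2 fold change of at least 1 left 456 genes higher and 182 lower of 807 and 623, and fitting only the 2 groups gave 961 lower. Leaving out 1 animal at a time gave 572 to 683 higher and 301 to 443 lower. Against saline the total of 1512 was 627 with a log2 fold change of at least 1, and 939 to 1676 with 1 animal left out. Against VEA 6.25 the total of 1 was 66 with DESeq2, 2 with limma-voom, 161 with no filter on low counts, 59 with only the 2 groups in the fit, and 0 to 16 with 1 animal left out. Against VEA 3.12 the total of 0 was 3 with DESeq2, 60 with no filter, 24 with only the 2 groups, and 0 to 8 with 1 animal left out. The counts of 16 and 8 are those without VEA 12.5 animal 66. The cause of these moves was not tested. No result reversed its direction past the threshold in the alternatives run. Of 45 genes named for size, 39 stayed on their side of the threshold in the 12 alternatives other than the required log2 fold change, as did 157 of 264 called list members. Of 29 list counts of 4 or more, RLE size factors, DESeq2 and limma-voom each moved 0 by more than 1.5 times, and 6 moved under any of the settings that keep all animals. With 3 animals a group, a gene that was not called may still differ.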
